A study of Mus musculus with 2 samples.

Results

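Ripk1, Ripk3, Mlkl, Casp8, Cflar, Fadd, Tradd, Birc2, Birc3 and Xiap encode the core of the machinery that decides between survival, apoptosis and necroptosis downstream of death receptors and Toll-like receptors. These 10 genes were picked by symbol from 55536 annotated mouse genes, of which 22028 were protein-coding. No filter on level was set, but earlier results of these data were known when the genes were chosen. Each symbol matched 1 gene in the deposited tables. Cytosolic RNA, depleted of ribosomal RNA and otherwise sequenced whole, came from C57BL/6J macrophages that were grown from bone marrow and given lipid A, the Toll-like receptor 4 agonist of bacterial lipopolysaccharide, at 100 ng/ml for 75 minutes. The series held 1 group of 2 libraries, numbered by the labels as biological replicates 1 and 2, and each was made from 1 µg of RNA. Both carry the same donor identifier and nothing states that animals or cultures were separate, so the SDs may measure partly technical spread. Sex and age were not collected. Every cell had received lipid A, and untreated cells, other times and the nuclear fraction were not analysed here, so the values are levels in stimulated cells and do not show what lipid A changed.

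In this pathway, the death domain adaptors TRADD and FADD link receptors to the kinase RIPK1 and to the protease caspase-8. While the ubiquitin ligases cIAP1 (Birc2) and cIAP2 (Birc3) decorate RIPK1 with ubiquitin chains, RIPK1 serves as a scaffold for NF-κB signalling. When that brake fails, RIPK1 and FADD assemble with caspase-8, which starts apoptosis, and with its catalytically dead relative cFLIP (Cflar), which limits caspase-8. When caspase-8 is blocked, RIPK3 phosphorylates the pseudokinase MLKL, which permeabilises the plasma membrane in necroptosis. Lipopolysaccharide can kill macrophages by these routes when IAP proteins, caspases or the kinases upstream are inhibited.

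Replicate 1 held 55736363 expected counts (the estimated fragments per gene) and replicate 2 held 50259425. All 10 macrophage markers examined, among them Adgre1, Cd68 and Csf1r, reached 1 TPM (a unit of transcript abundance that corrects for transcript length and library size), with summed levels of 6062 TPM in replicate 1 and 6462 TPM in replicate 2. Lyz2 made up most of that sum, at 4227 TPM in replicate 1 and 4111 TPM in replicate 2, and the other 9 were all lower in replicate 1, by TMM-scaled ratios to replicate 2 between 0.65 for Itgam and 0.934 for Cd14. Of other cell types, 3 of 10 neutrophil markers reached 1 TPM on average (S100a9, S100a8 and Ngp), and the list summed to 29.5 TPM in replicate 1 and 31.2 TPM in replicate 2. In the T and NK cell list 1 of 10 did (Il7r), with sums of 23.2 and 30.7 TPM, in the B and plasma cell list 1 of 8 (Ighm), with sums of 3.07 and 2.79 TPM, in the erythroid and platelet list 1 of 8 (Epor), with sums of 1.20 and 2.70 TPM, and in the stromal and endothelial list 1 of 8 (Kdr), with sums of 1.67 and 1.96 TPM, replicate 1 first in each. Of the 8 markers of mast cells and basophils none reached it, with sums of 0.480 TPM in replicate 1 and 0.85 TPM in replicate 2. The part of such cells in the levels below was not tested, and in these bulk libraries fewer cells of a type and less RNA per cell cannot be told apart.

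The 10 death-signalling genes were all detected, taken as a mean of 1 TPM or more, in a population where 39.3% of protein-coding genes were. Their levels spanned a wide range, with Cflar, the caspase-8 inhibitor, far above the others and the adaptor Fadd lowest. Their median was 8.69 TPM, beside a median of 0.110 TPM over all protein-coding genes and 6.14 TPM over the 8657 detected ones. Their levels summed to 170.7 TPM in replicate 1 and 167.3 TPM in replicate 2, and Cflar alone made up 49.5% of that sum in replicate 1 and 49.4% in replicate 2. By mean level the order was Cflar, Birc3, Casp8, Xiap, Ripk1, Mlkl, Ripk3, Birc2, Tradd and Fadd, and both libraries gave that order. Among neighbours in it, the library values overlapped only between Birc2 and Tradd. The intervals that the authors deposited with each TPM value, whose confidence level is not stated, overlapped in both libraries for Birc2 and Tradd, in replicate 1 for Ripk3 and Birc2, and in replicate 2 for Xiap and Ripk1 and for Mlkl and Ripk3.

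**Figure D1:**
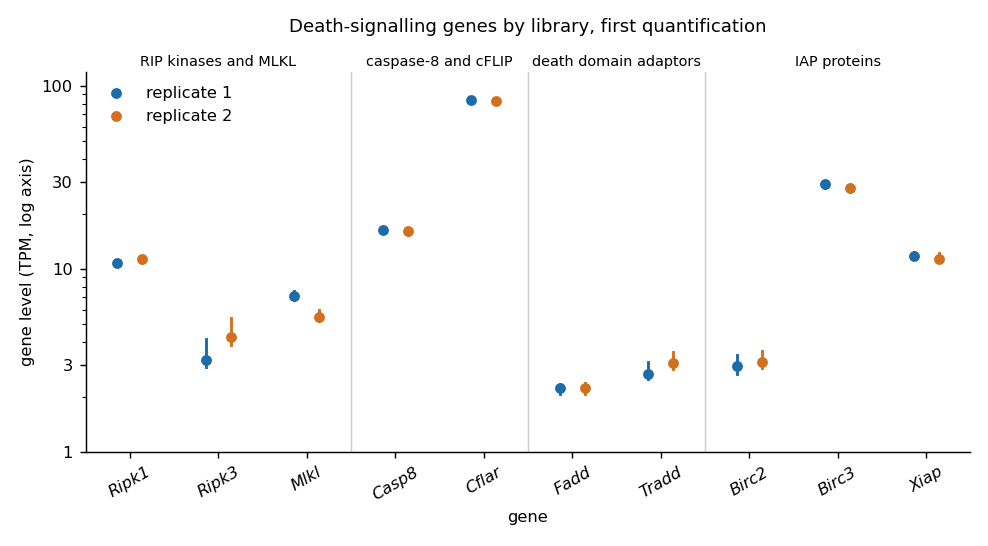
Level of each death-signalling gene in TPM (log axis) in replicate 1 (blue, left of each pair) and replicate 2 (orange), with the deposited interval of each value as a vertical line and the genes grouped by role. Cflar lies above 80 TPM in both libraries and Fadd at 2.23 and 2.24 TPM, and the pairs for Mlkl and Ripk3 are the widest apart.

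The RIP kinases and their effector differed in level and in how closely the libraries agreed. Ripk1 (ENSMUSG00000021408.15, chromosome 13, 34002363 to 34037147, plus strand, mm10), the scaffold and kinase at the head of the pathway, was listed at 10.8 TPM in replicate 1 and 11.3 TPM in replicate 2, from 4551 and 3865 expected counts. Ripk3 (ENSMUSG00000022221.14, chromosome 14, 55784995 to 55788865, minus strand), the necroptosis kinase, was listed at 3.16 TPM in replicate 1 and 4.22 TPM in replicate 2, from 452 and 441 counts. Mlkl (ENSMUSG00000012519.14, chromosome 8, 111311797 to 111338177, minus strand), the substrate of RIPK3 and executioner of necroptosis, was listed at 7.15 TPM in replicate 1 and 5.48 TPM in replicate 2, from 1420 and 942 counts. Thus Ripk1 stood highest in both libraries, while Ripk3 was lower in replicate 1 and Mlkl higher in replicate 1. The means were 11.1 ± 0.368 TPM for Ripk1, 3.69 ± 0.75 TPM for Ripk3 and 6.32 ± 1.18 TPM for Mlkl (SD, n = 2 each).

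Within a library the ratio of 2 genes does not depend on how libraries are scaled. The Ripk3 to Ripk1 ratio of TPM was 0.293 in replicate 1 and 0.373 in replicate 2, so the scaffold kinase had the higher RNA level in each. The Mlkl to Ripk3 ratio was 2.26 in replicate 1 and 1.30 in replicate 2, a spread in which the effector exceeded its kinase in both libraries but by different amounts. A second deposited quantification, made directly from the reads, gave Mlkl to Ripk3 ratios of 3.49 in replicate 1 and 1.99 in replicate 2. It gave Ripk3 to Ripk1 ratios of 0.215 in replicate 1 and 0.284 in replicate 2.

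Part of the Ripk3 value was assigned to RNA that does not encode the kinase. The full coding transcript Ripk3-201 (486 codons) held 2.10 TPM in replicate 1 and 2.35 TPM in replicate 2, or 66.5% and 55.6% of the gene. Ripk3-206, a 478-base transcript annotated with a retained intron, held 0.980 TPM in replicate 1 and 1.80 TPM in replicate 2, or 31.0% and 42.6%. Those levels rest on 29.3 counts in replicate 1 and 45.5 in replicate 2, and their size reflects the short length by which TPM divides. In the second quantification Ripk3-206 held 7.69% of the gene's TPM in replicate 1 and 22.9% in replicate 2. In the first quantification the coding transcript differed less between the libraries than the gene total did. In the second, Ripk3-201 stood at 1.08 TPM in replicate 1 and 0.951 TPM in replicate 2, and the gene at 1.21 and 1.29 TPM. Those TPM are not on a common scale between the libraries. Rescaled over nuclear-encoded protein-coding genes, the gene stood at 10.9 in replicate 1 and 15.0 in replicate 2. The rescaling acts alike on a gene and its transcripts. Ripk3-201 held 89.4% of the gene in replicate 1 and 73.7% in replicate 2 there. On the rescaled values the coding transcript therefore also differed less between the libraries than the gene did. Of the other 7 Ripk3 transcripts, 5 were listed at 0 counts in both libraries of the first quantification.

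Ripk1 and Mlkl consisted almost wholly of coding transcripts. Ripk1-201 held 80.7% of Ripk1 in replicate 1 and 80.3% in replicate 2, and Ripk1-203, a 6472-base transcript with the identical 656-codon coding sequence, held 18.5% and 15.9%. The strand used in counting is not given in the sources used here, and 344 bases of Ripk1-201 lie in the span of Serpinb6a, an antisense neighbour at 182 TPM, so reads there could not be told apart without strand. In Ripk1-203, 511 bases lie in the span of the same-strand pseudogene Gm17084, which was given 102 counts in replicate 1 and 56.9 in replicate 2. The deposited posterior SD of the Ripk1 count was 7.73 counts in replicate 1 and 6.93 in replicate 2. Mlkl-202 (464 codons) held 87.3% of Mlkl in replicate 1 and 89.96% in replicate 2, and Mlkl-201 (472 codons) held 9.09% and 10.04%. The 593-base coding fragment Mlkl-204 was listed at 0 in both libraries of the first quantification and at 12.3% of Mlkl in replicate 1 and 10.8% in replicate 2 of the second.

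Caspase-8 and cFLIP are related proteins, and their genes are neighbours on the plus strand of chromosome 1, 36489 bases apart with only the unexpressed Gm3841 (0 TPM) between them. The catalytic cysteine of caspase-8 and the codon of Cflar at the same distance from a 4-codon stretch that both share are shown because the loss of that cysteine is one of the changes that leave cFLIP without protease activity. The lines give coding bases of Casp8-202 (mm10, chr1:58844589-58844651, plus strand) and Cflar-205 (chr1:58752593-58752655, plus strand) from the GENCODE M21 transcripts, 5′ to 3′. Capitals mark codon 362 of each, TGC for cysteine in Casp8 and TAT for tyrosine in Cflar.
Casp8: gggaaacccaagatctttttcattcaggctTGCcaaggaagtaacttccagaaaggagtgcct
Cflar: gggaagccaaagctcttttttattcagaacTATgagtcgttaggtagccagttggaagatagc
Over 433 aligned residues the proteins encoded by these transcripts were 31.2% identical, and the longest identical coding run was 11 bases. The deposited posterior SD, which measures how uncertainly reads were divided among genes, was 0 counts in both libraries for Casp8, and 9.49 counts in replicate 1 and 10.9 in replicate 2 for Cflar.

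Cflar RNA was about 5 times as abundant as Casp8 RNA per length, and this was the ratio closest between the libraries among the 10 examined in the first quantification. Casp8 (ENSMUSG00000026029.14, chromosome 1, 58795374 to 58847503) was listed at 16.4 TPM in replicate 1 and 16.1 TPM in replicate 2, from 3621 and 2997 counts. Cflar (ENSMUSG00000026031.15, chromosome 1, 58711508 to 58758884) was listed at 84.4 TPM in replicate 1 and 82.6 TPM in replicate 2, from 52625 and 41531 counts. The RNA of the inhibitor therefore stood above that of the protease in both libraries, and protein was not measured. The means were 16.2 ± 0.219 TPM for Casp8 and 83.5 ± 1.27 TPM for Cflar (SD, n = 2 each). The Cflar to Casp8 ratio came to 5.15 in replicate 1 and 5.13 in replicate 2, and 5.38 and 5.25 in the second quantification. Cflar ranked 429 among the 22028 protein-coding genes, with 1.94% of them higher, and Casp8 ranked 2023.

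Most Cflar RNA was of the long form. Cflar-205, which encodes the 481-codon long form with the inactive caspase-like domain, held 67.1 TPM in replicate 1 and 62.1 TPM in replicate 2, or 79.6% and 75.1% of the gene. Cflar-204, which encodes a 215-codon short form that ends after the death effector domains, held 10.1 TPM in replicate 1 and 10.3 TPM in replicate 2, or 11.9% and 12.4%. In the second quantification the short form held 11.7% in replicate 1 and 12.9% in replicate 2. The share of the short form thus lay within a narrow range in both libraries and both quantifications. Most of the remainder was spread over processed transcripts, annotated without a coding sequence, which together held 8.01% in replicate 1 and 10.7% in replicate 2, and 14.5% and 15.1% in the second quantification.

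The point where the forms part is shown because it sets which cFLIP protein a transcript makes. Both share their first 612 coding bases, or 204 codons. The long form then joins the next exon (Cflar-205, chr1:58732297-58735690, plus strand, spliced), whereas the short form reads on without a splice for 11 codons of its own before its stop (Cflar-204, chr1:58732297-58732359, plus strand). Capitals mark the bases after the last shared one.
Cflar-205: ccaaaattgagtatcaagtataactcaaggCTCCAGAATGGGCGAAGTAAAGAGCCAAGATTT
Cflar-204: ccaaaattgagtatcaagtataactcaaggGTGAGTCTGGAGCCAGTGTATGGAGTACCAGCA
Short cFLIP, unlike the long form, cannot form the partly active heterodimer with caspase-8.

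Casp8 RNA was divided mainly between transcripts that encode the same protease. Casp8-202 and Casp8-201 share an identical 480-codon coding sequence and together held 93.8% of Casp8 in replicate 1 and 91.5% in replicate 2. Casp8-202 alone held 60.4% in replicate 1 and 56.5% in replicate 2, and Casp8-201 held 33.4% and 35.0%. Casp8-203 and Casp8-204 share a 500-codon coding sequence and together held 6.22% in replicate 1 and 8.52% in replicate 2, against 19.2% and 22.8% in the second quantification. Their size therefore depended on the quantification more than on the library. The added start of the 500-codon form is shown because it is the only coding difference between the 2 classes. Capitals mark the 60 coding bases placed before the start codon of the 480-codon form (mm10, chr1:58804083-58823972, plus strand, spliced).
Casp8-203: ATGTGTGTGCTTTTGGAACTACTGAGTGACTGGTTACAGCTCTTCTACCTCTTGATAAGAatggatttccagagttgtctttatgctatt

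By mean TPM in the first quantification, the death domain adaptors were the least abundant of the 10 along with Birc2. By mean TPM in the second, Ripk3 stood below Birc2 and Tradd, as it did in replicate 1, but in replicate 2 it stood above both. Fadd (ENSMUSG00000031077.7, chromosome 7, 144577318 to 144582463, minus strand), which recruits caspase-8 through its death effector domain, was listed at 2.23 TPM in replicate 1 and 2.24 TPM in replicate 2, from 955 and 805 counts. Tradd (ENSMUSG00000031887.13, chromosome 8, 105258286 to 105264609, minus strand), the adaptor of TNF receptor 1, was listed at 2.67 TPM in replicate 1 and 3.06 TPM in replicate 2, from 452 and 431 counts. Tradd was the higher of the adaptors in each library, and the means were 2.24 ± 0.0071 TPM for Fadd and 2.87 ± 0.276 TPM for Tradd (SD, n = 2 each). The Casp8 to Fadd ratio was 7.35 in replicate 1 and 7.18 in replicate 2, and the Ripk1 to Tradd ratio was 4.04 in replicate 1 and 3.70 in replicate 2. The enzymes therefore stood several-fold above the adaptors that recruit them at the RNA level. Fadd has 1 annotated transcript, and its antisense partner Faddos was given 4.52 counts in replicate 1 and 8.51 in replicate 2. Tradd-201 held 99.3% of Tradd in replicate 1 and 97.4% in replicate 2.

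**Figure D2:**
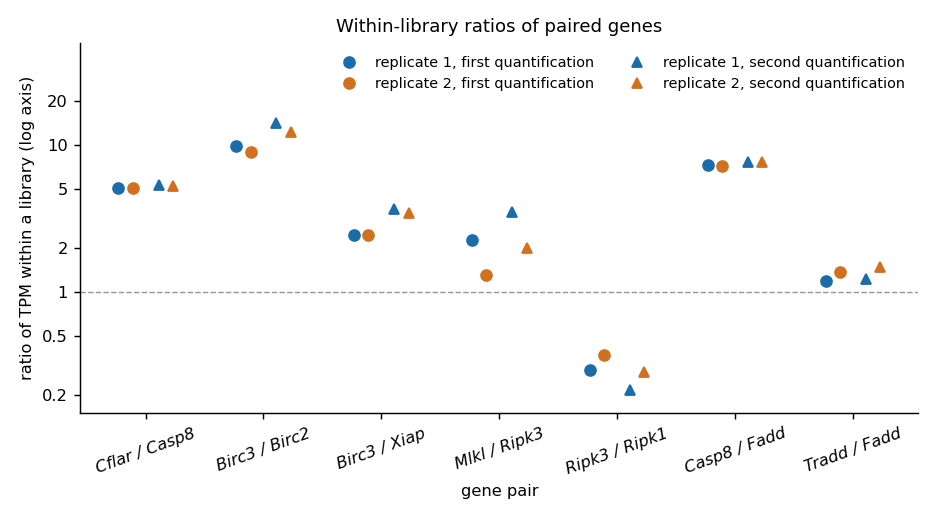
Ratio of TPM between paired genes within a library (log axis) for replicate 1 (blue, left) and replicate 2 (orange, right), with circles for the first quantification and triangles for the second. Cflar over Casp8 lies near 5 in all 4 values, whereas Mlkl over Ripk3 runs between 1.30 and 3.49 and Birc3 over Birc2 between 8.99 and 14.2.

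The IAP family was led by Birc3. Birc3 (ENSMUSG00000032000.17, chromosome 9, 7848699 to 7873186, minus strand), which encodes the ubiquitin ligase cIAP2 and is a textbook NF-κB target, was listed at 29.1 TPM in replicate 1 and 27.8 TPM in replicate 2, from 6815 and 5417 counts. Birc2 (ENSMUSG00000057367.12, chromosome 9, 7818227 to 7837064, minus strand), which encodes the related ligase cIAP1, was listed at 2.95 TPM in replicate 1 and 3.09 TPM in replicate 2, from 879 and 793 counts. Xiap (ENSMUSG00000025860.15, chromosome X, 42059679 to 42109656, plus strand), whose product inhibits caspases directly, was listed at 11.8 TPM in replicate 1 and 11.4 TPM in replicate 2, from 7763 and 6128 counts. Birc3 was highest and Birc2 lowest in both libraries, and no values overlapped. The means were 28.4 ± 0.926 TPM for Birc3, 3.02 ± 0.0990 TPM for Birc2 and 11.6 ± 0.290 TPM for Xiap (SD, n = 2 each). Birc3 exceeded Birc2 by a ratio of 9.86 in replicate 1 and 8.99 in replicate 2, and in the second quantification by 14.2 and 12.3. The latter ratios include the short processed Birc3 transcripts described below. The Birc3 to Xiap ratio was 2.46 in replicate 1 and 2.44 in replicate 2.

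Birc2 and Birc3 lie 11634 bases apart with no gene between them, and their products were 69.7% identical over 591 aligned residues. The longest coding run that they share is shown because a read that lies wholly within it cannot be assigned by sequence alone. The lines give Birc2-204 (mm10, chr9:7821086-7825618, minus strand, spliced) and Birc3-201 (chr9:7854479-7857399, minus strand, spliced), with the 114 identical bases in capitals.
Birc2: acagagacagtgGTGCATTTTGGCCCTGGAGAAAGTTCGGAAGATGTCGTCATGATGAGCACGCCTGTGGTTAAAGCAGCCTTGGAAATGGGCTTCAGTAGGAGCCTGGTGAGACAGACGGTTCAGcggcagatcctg
Birc3: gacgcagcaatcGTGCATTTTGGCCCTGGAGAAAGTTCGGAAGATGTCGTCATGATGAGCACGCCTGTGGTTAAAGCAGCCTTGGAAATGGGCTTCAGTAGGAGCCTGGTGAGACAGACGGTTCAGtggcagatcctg
The deposited posterior SDs were 0.29 counts in replicate 1 and 0 in replicate 2 for Birc2, and 0.58 and 0.60 counts for Birc3. Xiap shared shorter runs with both, of at most 14 bases, and its product was 42.1% identical to that of Birc3 and 42.9% to that of Birc2.

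How much of each IAP gene's RNA could encode the full protein depended on the quantification. Birc3-201, which encodes the 602-codon cIAP2, held 80.7% of Birc3 in replicate 1 and 78.6% in replicate 2, but 52.5% and 54.1% in the second quantification. The difference lay mostly in Birc3-206 and Birc3-205, processed transcripts of 360 and 355 bases. Birc3-206 held 9.29% in replicate 1 and 6.66% in replicate 2 of the first quantification, and 22.3% and 16.1% in the second. Birc3-205 held 6.81% in replicate 1 and 5.54% in replicate 2 of the first, and 18.0% and 20.1% in the second. Birc3-206 was given 45 counts in replicate 1 and 26 in replicate 2 of the first quantification, and 181 and 107 in the second. Birc3-205 was given 32 counts in replicate 1 and 21 in replicate 2 of the first, and 142 and 131 in the second. The whole gene had 7588 counts in replicate 1 and 6095 in replicate 2 of the second. The TPM shares of these short transcripts reflect the short length by which TPM divides. Birc3-201 itself stood at 23.5 TPM in replicate 1 and 21.8 TPM in replicate 2 of the first quantification, and at 11.4 and 8.28 TPM in the second. In the second, the full Birc2 coding sequence stood at 1.17 TPM in replicate 1 and 0.936 TPM in replicate 2.

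For Birc2 the transcript of highest mean TPM was Birc2-202 in the first quantification and Birc2-204 in the second. In the first, Birc2-202 held 46.4% in replicate 1 and 38.4% in replicate 2, and Birc2-204 held 35.6% and 43.6%, so Birc2-202 led in replicate 1 alone. In the second, Birc2-204 led in both libraries. Both have the identical 612-codon coding sequence, and together they held 82.0% in replicate 1 and 81.9% in replicate 2, and 75.9% and 75.0% in the second quantification. The retained-intron transcript Birc2-203 held 5.76% in replicate 1 and 10.3% in replicate 2, and the processed transcript Birc2-205 held 5.42% and 7.74%. Xiap was spread over several transcripts. Its transcripts with the 496-codon coding sequence, led by Xiap-203 at 32.9% in replicate 1 and 33.7% in replicate 2, with Xiap-202 at 18.4% and 12.5% and Xiap-204 at 13.5% and 19.8%, together held 65.6% and 67.1%, and 81.2% and 79.0% in the second quantification. The 5407-base processed transcript Xiap-207 held 28.8% in replicate 1 and 22.8% in replicate 2, and 8.72% and 6.99% in the second quantification.

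Across the 10 genes the annotation lists 63 transcripts, 34 of them protein-coding, 19 processed, 8 with a retained intron and 2 marked for nonsense-mediated decay. In the first quantification 25 reached a mean of 1 TPM, and in the second 16. The same transcript led in both quantifications in 8 of the 9 genes with several transcripts, Birc2 being the exception (without replicate 1 it was 9 of 9), where 89.5% of detected protein-coding genes with several transcripts had the same leader. The count of 8 of 9 lies near that background.

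**Figure D3:**
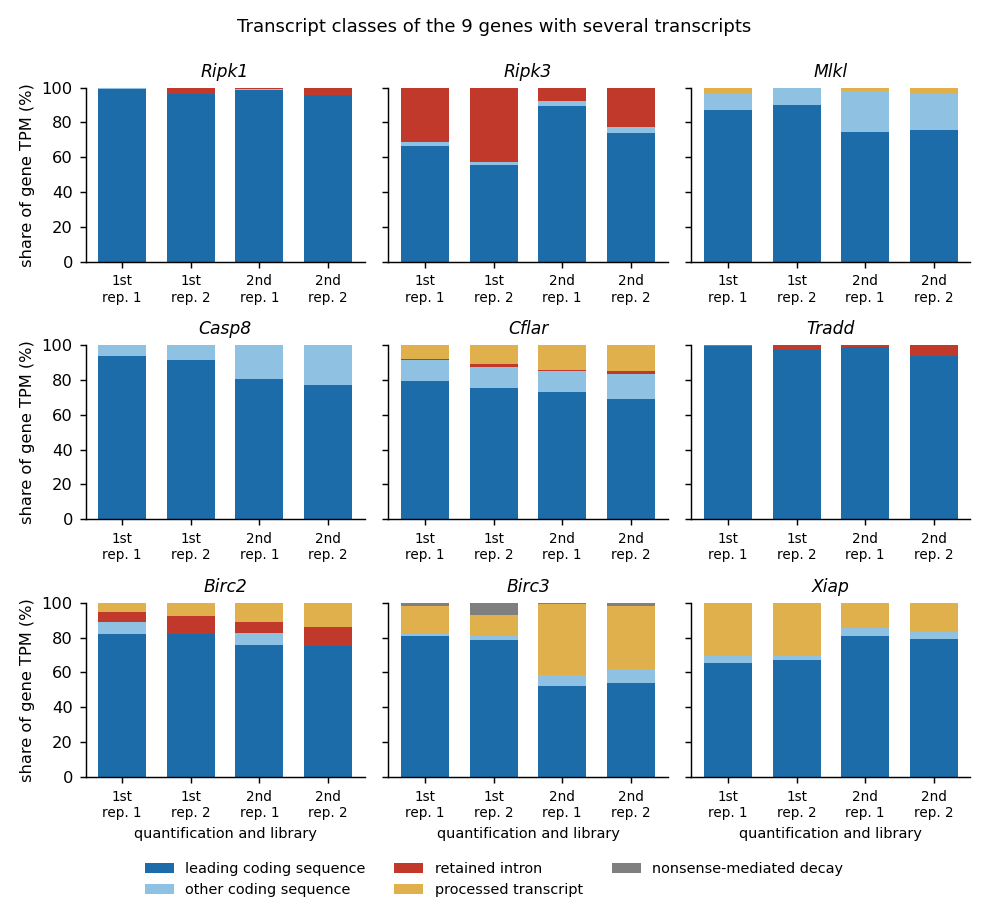
Share of each gene's TPM (percent) held by transcript classes in replicate 1 and replicate 2 of the first and second quantification, for the 9 genes with several transcripts. The leading coding sequence, here all transcripts that encode the identical most abundant protein, holds over 90% of Ripk1 and Tradd in every bar, and Ripk3 and Birc3 show the widest shifts of that class between quantifications.

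Transcripts that retain introns tend to stay in the nucleus, and their share of a gene's counts in this cytosolic RNA differed between the libraries. For Ripk3 it was 6.48% in replicate 1 (95% Clopper-Pearson interval 4.34 to 9.08%) and 10.3% in replicate 2 (7.74 to 13.7%). For Birc2 it was 2.43% in replicate 1 (1.48 to 3.63%) and 4.29% in replicate 2 (2.99 to 5.94%). For Cflar it was 0.330% in replicate 1 (0.283 to 0.383%) and 1.12% in replicate 2 (1.03 to 1.23%). For Ripk1 it was 0.283% in replicate 1 (0.152 to 0.488%) and 1.53% in replicate 2 (1.16 to 1.96%). The intervals of the libraries overlapped for Ripk3 and Birc2 and not for Cflar and Ripk1. Such overlap was not counted over other genes and depends on a gene's depth, so it is not read as a trait of these genes. All 4 genes with enough such counts for the comparison had the lower share in replicate 1, as had 81.1% of the 2402 protein-coding genes examined, whose median share was 2.08% in replicate 1 and 4.02% in replicate 2. The nuclear RNA Malat1 stood at 158 TPM in replicate 1 and 799 TPM in replicate 2, and Neat1, another nuclear RNA, at 14.8 TPM in replicate 1 and 64.6 TPM in replicate 2. Their part in the retained-intron shares was not tested. Shares here are of the first quantification, and the intervals cover counting error only, not how counts were divided among transcripts. In the second, Ripk3-206 was given 5.85 of 473 counts in replicate 1 and 21.5 of 477 in replicate 2. In the first it was given 29.3 and 45.5. The Cflar retained-intron transcript was given 203 and 550 counts in the second, against 174 and 467 in the first.

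The replicates themselves were close for most of these genes. After TMM scaling, the ratio of replicate 1 to replicate 2 lay between 0.895 for Ripk3 and 1.32 for Mlkl. None of the 10 differed by more than 2-fold, where 1.6% of all genes with a mean count of at least 100 did, and none by more than 1.5-fold, where 4.85% of those genes did. By these scaled counts Mlkl was the gene furthest apart, with a 95% counting interval of 1.21 to 1.43. It alone had deposited TPM intervals that did not overlap between the libraries, and the share of all genes with such intervals was not computed. In TPM, Ripk3 was furthest apart, with an SD of 20.3% of its mean against 18.7% for Mlkl. Of all genes tested, 11.9% differed more than Mlkl. For Cflar the ratio was 1.107 with an interval of 1.093 to 1.121, an interval narrowed by its depth. For Ripk1, Ripk3, Fadd, Tradd and Birc2 the counting interval included 1, and the share over all genes was not computed for this either. The median size of the log2 ratio was 0.131 over the 10 genes and 0.151 over all 10091 genes.

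**Figure D4:**
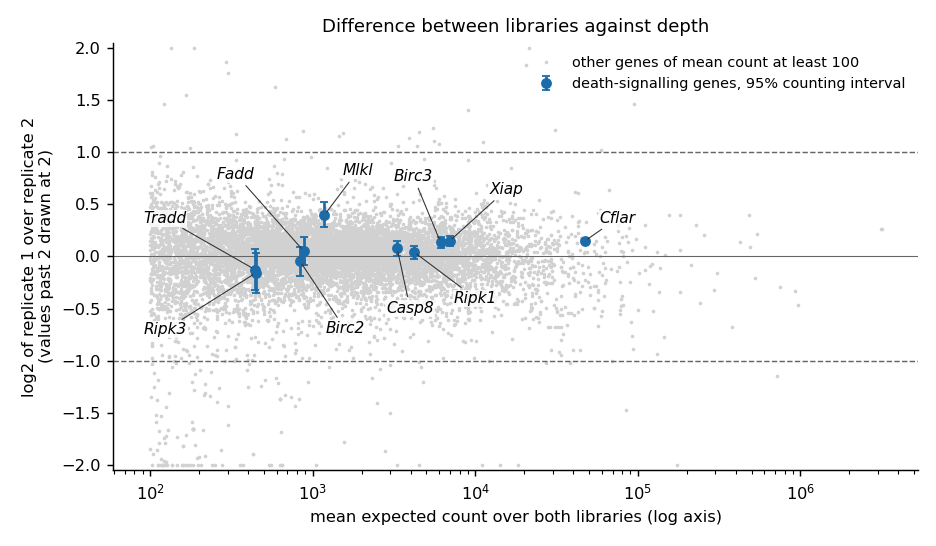
Log2 ratio of replicate 1 to replicate 2 after TMM scaling against the mean expected count (log axis) for the 10 death-signalling genes (blue, with 95% counting intervals) and all genes with a mean count of at least 100 (grey), with dashed lines at 2-fold. All 10 lie inside the dashed lines, and Mlkl lies highest at 0.40 on the log2 scale.

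The second quantification gave similar gene levels once both were expressed on a common scale. When TPM was rescaled over nuclear-encoded protein-coding genes, Cflar stood at 405 ± 9.87 in the second quantification and 384 ± 9.13 in the first, and Casp8 at 76.2 ± 0.588 and 74.8 ± 1.65 (SD, n = 2 each). No gene of the 10 differed by more than 1.5-fold between the quantifications, where 1.98% of detected protein-coding genes did. The furthest apart were Birc3, at 1.43 times the first value, and Ripk3, at 0.764 times. By mean level the order of the genes was the same in both except that Ripk3 stood behind Birc2 and Tradd in the second. That held in replicate 1, with Ripk3 at 10.9, Tradd at 12.1 and Birc2 at 13.8. In replicate 2 Ripk3 stood above both, at 15.0 against 14.6 for Tradd and 14.5 for Birc2.

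The genes that act on these 10 were largely present too. Of 67 genes in 7 lists, chosen with earlier results known, 59 reached a mean of 1 TPM, where 39.3% of all protein-coding genes did. Their median was 7.75 TPM over the 67. None of those with enough counts differed by more than 2-fold between the replicates, where 1.6% of all genes with a mean count of at least 100 did. Among ligands and receptors 7 of 12 were detected. Tnf, the ligand of TNF receptor 1, stood at 1402 ± 90.3 TPM, and its receptors Tnfrsf1b and Tnfrsf1a at 152 ± 29.7 and 24.7 ± 2.06 TPM (SD, n = 2 each). Tnfsf12, the ligand TWEAK, stood at 29.4 ± 0.976 TPM. The other death ligands were below the limit, with Tnfsf10 (TRAIL) at 0.260 TPM, Lta at 0.0250 TPM and Fasl without a count in either library. The receptors Tnfrsf10b at 0.315 TPM and Tnfrsf25 at 0.005 TPM were also below the limit.

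All 8 other inputs to RIPK1 and RIPK3 were detected, with a median of 15.1 TPM. They were led by the interferon receptor chains Ifnar2 at 42.5 ± 7.84 TPM and Ifnar1 at 20.8 ± 6.69 TPM, followed by Zbp1, the nucleic acid sensor that engages RIPK3, at 18.8 ± 4.29 TPM, and the lipid A receptor Tlr4 at 16.3 ± 0.375 TPM. All 10 ubiquitin ligases and deubiquitinases of the receptor complex were detected, with a median of 7.70 TPM. Tnfaip3 (A20), which edits ubiquitin on RIPK1, stood far above the rest at 339 ± 8.84 TPM, and its partner Tnip1 at 48.6 ± 5.06 TPM. Sharpin, a subunit of the linear ubiquitin ligase, stood at 12.9 ± 0.262 TPM, and Otulin, which removes linear chains, at 11.8 ± 0.849 TPM.

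Of 10 kinases and adaptors that restrain RIPK1, 9 were detected, with a median of 10.8 TPM. Mapkapk2 (MK2), which phosphorylates RIPK1, stood at 103 ± 18.7 TPM, the TAK1 adaptor Tab2 at 25.1 ± 0.283 TPM, Ikbke at 20.4 ± 5.24 TPM and Tbk1 at 16.3 ± 0.134 TPM. Tab1, a further adaptor of TAK1, was the one gene of the list below the limit, at 0.705 ± 0.0495 TPM. All 11 caspases and mitochondrial death genes were detected, with a median of 5.35 TPM. Bax and Bak1, the pore formers of the mitochondrial outer membrane, stood at 32.9 ± 1.84 and 18.2 ± 0.290 TPM, Apaf1, the apoptosome scaffold, at 20.7 ± 0.566 TPM, and Htra2, which antagonises IAP proteins, at 7.99 ± 0.198 TPM.

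All 7 pyroptosis genes were detected, with the highest median of the 7 lists, 22.7 TPM. The inflammasome sensor Nlrp3 stood at 120.2 ± 16.6 TPM, Ninj1, which ruptures the dying cell's membrane, at 107 ± 7.70 TPM, and the inflammatory caspases Casp1 and Casp4 at 22.9 ± 1.82 and 22.7 ± 1.16 TPM. The other IAP and RIP kinase relatives had the lowest median of the 7, 1.94 TPM, with 7 of 9 detected. Birc6 stood at 16.8 ± 2.80 TPM, Ripk2, the kinase of the NOD receptors, at 16.1 ± 2.10 TPM, Naip2 at 6.33 ± 1.18 TPM and Naip5 at 2.61 ± 0.311 TPM. Naip1 was near 0 at 0.0250 TPM, and Ripk4 had no count in either library. The Naip genes are close copies of each other, so how reads were divided among them is uncertain.

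**Figure D5:**
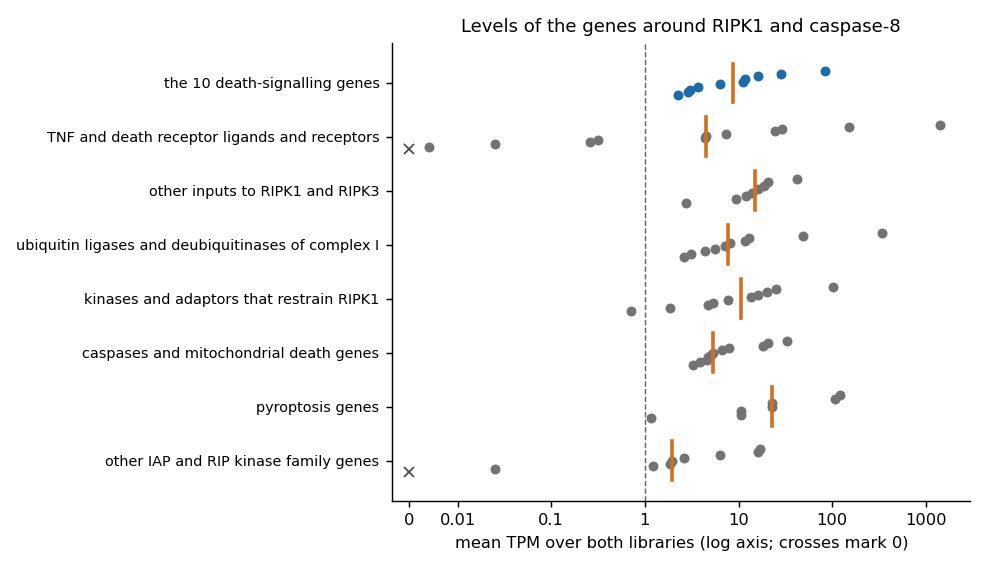
Mean TPM over both libraries (log axis, crosses at 0) of the 10 death-signalling genes (blue) and of the genes in 7 pathway lists (grey), with the list median as an orange bar and a dashed line at 1 TPM. Tnf at 1402 TPM and Tnfaip3 at 339 TPM lie furthest to the right, and Fasl and Ripk4 are drawn at 0.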

How the data were processed

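Each of the 2 cytosolic RNA libraries of the single group was quantified on its own, by 2 routes. Per the file headers and deposited readme files, the first quantification (a gene and a transcript table) was derived from alignments to the transcriptome and the second (transcripts only) from the raw reads, on mm10 with annotation M21. The aligner, both quantifiers, all versions and the counting strand were not given in the sources used here, and they could shift reads between overlapping genes and transcripts. Expected counts deposited by the authors are estimated fragments, not normalized. The TPM values deposited by the authors are scaled over all entries of a table, and the percent of a gene's TPM in each transcript was also deposited by the authors, but shares here were computed from TPM. Entries without a versioned gene identifier were left out; they took 0.251% of replicate 1 and 0.204% of replicate 2, and 86 genes lacked a second value. Library totals over genes were 55596625 and 50157146 in the first quantification, and totals were 65933328 and 62889522 in the second.

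Genes were joined by versioned identifier, and second-quantification values were summed per gene. Detection was set at a mean of 1 TPM, with no pseudocount. Counts were rounded, and TMM factors came from genes of mean count 10 or higher (edgeR 4.0.16, R 4.3.3), with DESeq2 1.42.0 size factors as an alternative. Replicate ratios of the 10 genes used scaled counts with nothing added, and 95% Clopper-Pearson intervals, for counting error only. Comparisons over all genes, and counts of the 10 past a fold limit, used scaled counts with 0.5 added. Retained-intron shares needed a mean of 20 such counts and 100 in the gene. Sequences came from GENCODE M21 transcripts. Other steps used Python 3.11.15. The scaling was also run on simulated counts with a fixed spread and equal numbers of genes raised and lowered. That run does not show how the scaling performs on these libraries. With 1 group there is no test between groups and no p-value; errors are SDs over n = 2. The genes and all lists were chosen with earlier results of these data known. Named were all 10 genes, up to 4 genes of highest level and each below 1 TPM per pathway list, transcripts with 10% or more of a gene in either quantification and non-coding ones over 5%, and marker genes at 1 TPM where a list had 5 or fewer; transcripts outside that rule are named only to complete a coding class or to show where the quantifications differ.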

Additional observations from a re-analysis of the deposited data

How the results depend on the processing

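With 2 libraries of 1 group, only the spread between libraries can be set against a change of setting. The number of detected genes stayed at 10 at thresholds of 0.5 and 2 TPM, on the protein-coding scale and in either library alone, and was 9 in the second quantification, where Fadd averaged 0.975 TPM. The median level, 8.69 TPM, was 4.25 TPM in the second quantification, 40.005 on the protein-coding scale and, an alternative chosen after seeing the data, 43.0 on that scale in the second quantification; these are other units of the same libraries. The log2 ratio of Cflar to Casp8, 2.36, became 2.41 in the second quantification, 2.37 with posterior mean TPM, 2.29 with 1 TPM added and 3.83 from expected counts, which are not divided by length. That of Birc3 to Birc2, 3.24, became 3.72 in the second quantification, 2.87 with 1 TPM added and 2.86 from expected counts. That of Mlkl to Ripk3, 0.78, became 1.40 in the second quantification and 1.37 from expected counts, and ran from 0.38 to 1.18 when either library was left out. That of Ripk3 to Ripk1, -1.60, became -2.02 in the second quantification and -3.23 from expected counts. Protein-coding transcripts alone, in the first quantification, were a setting chosen after seeing the data. With them the ratios were 2.20 for Cflar to Casp8, 3.16 for Birc3 to Birc2, 1.42 for Mlkl to Ripk3 and -2.23 for Ripk3 to Ripk1. None of these ratios changed direction. The causes were not tested, beyond the length division that expected counts lack. Without length correction Birc3 had 0.878 of the Xiap count in replicate 1 and 0.884 in replicate 2, and Tradd 0.473 and 0.535 of the Fadd count. No gene passed 2-fold between replicates under 5 alternatives, the same transcript led in 8 or 9 genes, and 54 to 62 of the 67 pathway genes were detected. No paired analysis was possible because the series has 1 group. Depth limits Ripk3 and Tradd most, at 452 counts or fewer per library, and the short transcripts.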

Other observations

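Several transcripts of these genes were listed at 0 in the first quantification and with counts in the second. Cflar-201, which encodes the same 481-codon long form as Cflar-205, had 0 counts in both libraries of the first and 613 counts in replicate 1 and 322 in replicate 2 of the second. Casp8-204 had 0 counts in replicate 1 and 8.04 in replicate 2 of the first, and 286 and 197 in the second. Cflar-212, a processed transcript, had 0 counts in both libraries of the first and 103 in replicate 1 and 15.8 in replicate 2 of the second. Over the 63 transcripts, 11 had 0 counts in both libraries of the first quantification and 7 of these had none in the second either. These transcripts were chosen after their values were seen.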
